A study of Mus musculus with 36 samples.

Results

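Transcripts of 10 heat shock chaperones were followed in the tibiae of wild-type and progeroid mice. The members were the rows of the deposited table whose gene symbol is Hspa1a, Hspa1b, Hspa8, Dnajb1, Hsph1, Hsp90aa1, Hsp90ab1, Hspb1, Hspd1 or Hspe1, each present once, and they make up 10 of the 56246 genes listed. All 10 were among the 15902 genes tested, and the rule names them by symbol alone, although it was set with earlier results of these data known. Heat shock proteins are chaperones that bind unfolded or aggregation-prone proteins and help them fold, and some of their genes are switched on sharply by heat or other protein-damaging stress through heat shock factors. The HSP70 and HSP90 classes work in the cytosol as ATP-driven machines with J proteins, exchange factors and co-chaperones, small heat shock proteins hold unfolded clients without ATP, and the HSP60 and HSP10 pair forms the folding chamber of mitochondria. In musculoskeletal tissue, small heat shock proteins are abundant in contracting muscle fibers, and chaperones serve cells that secrete large amounts of matrix.

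Bulk poly(A) RNA sequencing was performed on tibiae of 36 mice at 6 months of age, and each library came from 1 mouse. The groups were 12 wild-type mice (WT), 12 double-copy LMNA G608G/G608G transgenic mice given saline and 12 double-copy LMNA G608G/G608G mice given an adenine base editor (ABE), each with 6 males and 6 females. The transgene is a human bacterial artificial chromosome with the classic LMNA variant of Hutchinson-Gilford progeria syndrome, whose aberrant splicing yields progerin, in C57BL/6J mice, and it also brings in the human gene RAB25. Saline or ABE was injected retro-orbitally at postnatal day 14, the editor as a pair of AAV9 vectors whose products are joined by inteins, and the study describes correction of only part of the transgene copies in bone. Wild-type mice carry the treatment label NT. Per the methods, epiphyses and marrow were taken off before RNA extraction. The study calls the groups littermates, but the wild-type mice carry numbers of a series of their own, while saline-treated and ABE-treated mice share number ranges. In comparisons with wild type, any effects of that series, of the injection at postnatal day 14 and of genotype cannot be told apart. Comparisons of both transgenic groups with wild type use the same 12 wild-type libraries.

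Libraries held between 48064068 and 116206662 reads on genes, recovered from the deposited values. Levels are given as scaled TPM, which are the deposited TPM (read counts corrected for gene length and brought to 1 total per library) divided by a scale factor for each library, so that the median gene has the same level in all libraries. That factor ran from 0.219 to 1.57, and ABE replicate 1, a female, held the lowest value, with the next lowest library at 0.610. Differences are log2 fold changes on the log2(scaled TPM + 0.5) scale with their standard error (SE), which understates the change of low genes. A gene was called when its Benjamini-Hochberg adjusted p from limma over all 15902 genes was under 0.05. Bulk RNA cannot separate cell number from cell content: fewer cells of a type and less RNA per cell cannot be told apart. Osteocyte markers (Dmp1, Mepe, Phex, Sost, Fgf23 and Pdpn) summed to between 10.4 and 48.8 scaled TPM in WT libraries, 170 to 490 in saline libraries and 173 to 346 in ABE libraries, and none of the 6 was at 0 in all libraries. The 16 skeletal muscle markers summed to a median of 1205 scaled TPM in WT, 2565 in saline and 7624 in ABE libraries, with 13, 16 and 14 of 16 higher in saline against WT, ABE against WT and ABE against saline. Neutrophil markers summed to medians of 1484, 2549 and 1575 scaled TPM in WT, saline and ABE libraries, and 7 of 8 were lower in ABE-treated than in saline-treated mice. Erythroid markers had medians of 217, 247 and 114, and all 5 tested were lower in ABE-treated than in saline-treated mice.

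Hspa1a (ENSMUSG00000091971.3, chr17:34969190-34972156 on GRCm38, minus strand) and Hspa1b (ENSMUSG00000090877.3, chr17:34956436-34959238, minus strand) are genes of 1 exon, 9952 bp apart, that encode near-identical stress-inducible HSP70 proteins. They share sequence, and 37.9% of read-length windows of the Hspa1a transcript and 40.3% of those of Hspa1b also occur in the other gene. How the study counted reads from those windows is not described, so the sum of both is also given. The sum would not restore reads that were left uncounted. A gene on the opposite strand overlaps Hspa1a.

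Promoter sequences are shown for the members that changed most and for the most element-rich start sites, because heat shock factors bind arrays of inverted GAA repeats. Promoter sequences were taken from RefSeq on GRCm38.p6, which held 10 windows for 7 of the 10 members and none for Hspa8, Hsp90aa1 or Hsp90ab1. Capitals mark 2-unit heat shock elements, searched as GAANNTTC or TTCNNGAA, which are their own reverse complements. The 250 bases before the start held such an element in 6 of the 7 genes, and 12.8% of 32851 promoter windows of that length held one. Both upstream sequences of the inducible HSP70 genes carry a single element at position -104 from the start.
Hspa1a, chr17:34972157-34972286, minus strand: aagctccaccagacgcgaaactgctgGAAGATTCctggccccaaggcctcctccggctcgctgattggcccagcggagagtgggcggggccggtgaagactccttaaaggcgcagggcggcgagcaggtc
Hspa1b, chr17:34959239-34959368, minus strand: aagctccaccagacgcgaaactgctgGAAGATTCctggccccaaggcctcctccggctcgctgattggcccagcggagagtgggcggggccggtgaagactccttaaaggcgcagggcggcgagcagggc
Over the 250 bases before their starts, Hspa1a and Hspa1b differed at 3 positions.

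Hspb1 carried a pair of elements at positions -117 and -97, Hsph1 carried 1 element, and the paired mitochondrial genes carried a longer array. That array holds 2 overlapping 3-unit elements, searched as the 2-unit element extended by NNGAA or NNTTC. They overlap the 2-unit hits, and a 3-unit element was present in 0.466% of all promoter windows. Hspd1 and Hspe1 are transcribed head to head from gene models that overlap by 112 bp, and the same DNA gives the array in windows of both genes.
Hspb1, chr5:135887801-135887830, plus strand: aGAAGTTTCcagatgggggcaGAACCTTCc
Hsph1, chr5:149636351-149636380, minus strand: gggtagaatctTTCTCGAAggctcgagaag
Hspe1 and Hspd1, chr1:55088053-55088082, plus strand: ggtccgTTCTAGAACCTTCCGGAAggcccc
The Hsph1 excerpt spans the annotated start of the gene, and the Hspe1 excerpt lies inside the annotated Hspd1 gene. Neither of the windows of Dnajb1 held the searched letters. These matches describe the sequence and are not evidence of binding.

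The level of the members spanned a wide range. Averaged over 36 libraries, Hsp90ab1 was at 53.95 scaled TPM and Hspa8 at 36.9, followed by Hspd1 at 11.1, Hspb1 at 10.7, Hsp90aa1 at 8.22, Hspe1 at 4.99, Dnajb1 at 3.72, Hsph1 at 1.503, Hspa1b at 0.710 and Hspa1a at 0.613. Hspa8 and Hsp90ab1, the constitutive cytosolic HSP70 and HSP90, made up 69.4% ± 1.16 (SD, n = 12) of the summed level of the 10 genes in WT, 69.7% ± 1.81 in saline and 67.5% ± 2.77 in ABE libraries. Summed over the 10 genes, levels ran from 76.6 to 110 scaled TPM in WT, 114 to 167 in saline-treated and 113 to 195 in ABE-treated mice.

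Compared with wild type, saline-treated LMNA G/G tibiae had more transcript of 6 of the 10 chaperones and less of none. These were the constitutive cytosolic chaperones Hspa8 and Hsp90ab1, together with Hsp90aa1, Hspb1, Hspd1 and Hspe1. Among all genes tested, 52.4% were called in this comparison, 27.7% higher and 24.6% lower. At an unadjusted p under 0.05 the count was 7 higher and 0 lower, beside 9226 of 15902 genes in either direction. The median log2 fold change was 0.33 over the 10 members and 0.02 over all genes. With TPM as deposited, which moves the median of all genes by -0.13, the count was 1 higher and 0 lower. All genes then gave 1035 higher and 3726 lower. With markers of 4 cell types in the model, 2 members were higher and 0 lower, beside 1757 and 1864 of all genes. With the WT and saline libraries fitted alone, 8 were higher and 0 lower, beside 4943 and 4269 of all genes, Hspa1b and Hsph1 being added.

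ABE-treated mice had more of 8 members than wild type, against 70.2% of all genes called, 35.0% higher and 35.2% lower. By limma 0 of the 10 were called lower, also at an unadjusted p under 0.05, which 11487 of 15902 genes passed in either direction. TPM as deposited (median of all genes -0.42) gave 4 higher and 1 lower, beside 1468 and 9462 of all genes. Scaling by the sum of longer genes gave 8 higher and 1 lower, beside 3593 and 7855 of all genes. Dnajb1 and Hsp90aa1 were the 2 that were not called. The median log2 fold change of the members was 0.72, against -0.02 over all genes.

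ABE and saline treatment of LMNA G/G mice differed in 7 members, with 5 higher (Hspa1a, Hspa1b, Hsph1, Hspb1 and Hspa8) and 2 lower (Dnajb1 and Hsp90aa1) in ABE-treated mice. Over all genes 48.4% were called, 23.2% higher and 25.2% lower. Limma-voom on recovered reads of all genes tested gave the same counts of 5 and 2, beside 3669 and 3916 of all genes. TPM as deposited, which moves the median of all genes by -0.27, gave 2 higher and 2 lower, beside 540 and 6580 of all genes. With that scaling Hspa8, Hsp90ab1, Hspd1 and Hspe1 turned negative. The count was 3 higher and 1 lower without ABE replicate 1, beside 3255 and 3462 of all genes. It was 3 higher and 0 lower with the skeletal muscle markers in the model, beside 865 and 410 of all genes. Hsp90ab1, Hspd1 and Hspe1 were not called, with intervals of the log2 difference of -0.08 to 0.24, -0.01 to 0.33 and -0.09 to 0.22. Complete separation of groups was rarer: 1 member in saline against WT, 2 in ABE against WT and 0 in ABE against saline had every mouse of the first group above every mouse of the second, beside 3.06%, 4.14% and 0.0189% of all genes. In the other direction 0 members separated in each comparison, beside 3.57%, 4.45% and 0.0126% of all genes.

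**Figure D1:**
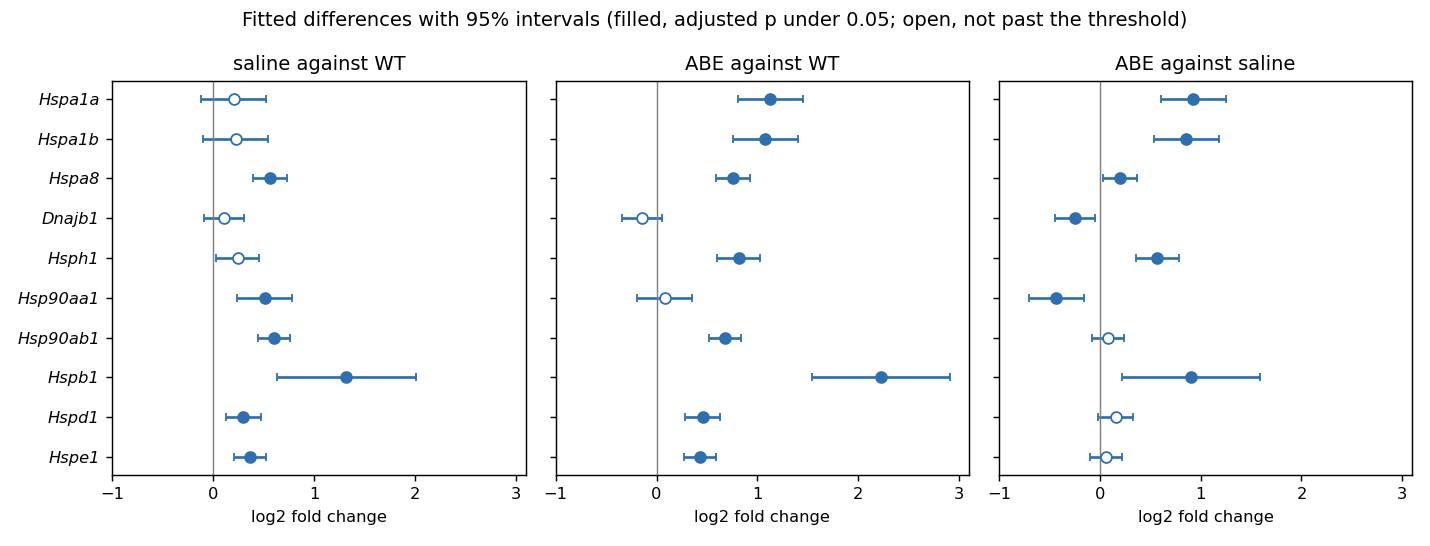
Log2 fold change (horizontal axis, log2(scaled TPM + 0.5) scale) of each chaperone (vertical axis) in 3 comparisons, with 95% confidence intervals from limma on 36 libraries. Filled points passed an adjusted p of 0.05. All 6 filled points of saline against WT lie right of 0, whereas ABE against saline has 5 to the right and 2, Dnajb1 and Hsp90aa1, to the left.

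The inducible HSP70 genes were low in wild-type and saline-treated mice and higher in ABE-treated mice. Hspa1a had a lowest, median and highest level of 0.104, 0.227 and 0.489 scaled TPM in WT, 0.156, 0.295 and 0.665 in saline-treated and 0.293, 1.14 and 2.92 in ABE-treated mice. In 10 of 12 ABE-treated mice the level was above every saline-treated mouse, and the groups overlapped through ABE replicates 2 and 3, both females. Between saline-treated and ABE-treated mice the log2 fold change was 0.93 (SE 0.16, adjusted p = 2.1e-04, limma). With a mean of 0.241 scaled TPM in WT and 0.359 in saline libraries, Hspa1a passed the filter of 0.5 only through the ABE group, and with no filter the adjusted p was 3.4e-04. The means were 0.359 ± 0.156 and 1.24 ± 0.724 scaled TPM (SD, n = 12), a ratio of 3.45. With a pseudocount of 0.1 the log2 fold change was 1.41, and with limma-voom on recovered reads of all genes tested it was 1.64.

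The levels of Hspa1b ran alongside. Its lowest, median and highest levels were 0.137, 0.301 and 0.552 scaled TPM in WT, 0.296, 0.395 and 0.9001 in saline-treated and 0.342, 1.32 and 3.37 in ABE-treated mice, 8 of which were above all saline-treated mice. The log2 fold change of ABE against saline was 0.86 (SE 0.16, adjusted p = 3.9e-04, limma), and limma-voom on recovered reads of all genes tested gave 1.40. Hspa1b too passed the filter only through the ABE group, with means of 0.317 in WT, 0.460 in saline and 1.35 in ABE libraries, and its adjusted p was 6.0e-04 with no filter. In females alone the call was lost (0.59, adjusted p = 0.053). Summed over both genes, the median was 0.691 scaled TPM in saline and 2.48 in ABE libraries, and 10 of 12 ABE-treated mice were above all saline-treated mice. Recovered reads of Hspa1a ran from 93 to 1818 per library.

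Neither gene was called between saline-treated and wild-type mice in the fit of all 36 libraries. The log2 fold change was 0.20 for Hspa1a (SE 0.16, adjusted p = 0.28, limma) and 0.22 for Hspa1b (SE 0.16, adjusted p = 0.24), with intervals of -0.12 to 0.53 and -0.10 to 0.55. Without the ABE libraries, the SE of both was 0.09, and the adjusted p was 0.067 for Hspa1a and 0.042 for Hspa1b. Against wild type, ABE-treated mice were higher by 1.13 for Hspa1a (adjusted p = 2.2e-07) and by 1.08 for Hspa1b (adjusted p = 4.9e-07).

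Hspa8 (ENSMUSG00000015656.17) encodes the constitutive HSC70, which folds new proteins and strips clathrin from vesicles. Its lowest, median and highest levels were 21.1, 26.4 and 32.9 scaled TPM in WT, 31.3, 39.0 and 50.1 in saline-treated and 35.3, 46.6 and 53.9 in ABE-treated mice. All ABE-treated mice, and 10 of 12 saline-treated mice, were above the highest wild-type mouse. The log2 fold change was 0.56 (SE 0.08, adjusted p = 1.1e-06, limma) in saline against WT and 0.76 (SE 0.08, adjusted p = 2.5e-09) in ABE against WT. ABE-treated mice were 0.20 above saline-treated mice (SE 0.08, adjusted p = 0.042), a call that was lost without any 1 of 14 libraries (saline replicates 1, 3, 4, 5, 8, 9 and 11 and ABE replicates 1, 4, 5, 6, 7, 9 and 11), where the adjusted p lay between 0.051 and 0.083. Processed pseudogenes Gm15459 and Gm8355 hold read-length windows of Hspa8, which shares 55.3% of its windows, and were listed at 5.33% and 2.82% of its mean level.

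The partners of HSP70 differed in direction in ABE against saline. Hsph1, the HSP110 exchange factor that reloads HSP70 with ATP, was at 0.802, 1.01 and 1.23 scaled TPM (lowest, median and highest) in WT, 0.851, 1.31 and 1.74 in saline-treated and 1.13, 2.30 and 3.15 in ABE-treated mice. Of the ABE-treated mice, 10 were above every saline-treated mouse and 11 above every wild-type mouse, and replicates 2 and 3 were again the lowest. The log2 fold change was 0.57 in ABE against saline (SE 0.11, adjusted p = 3.8e-04, limma) and 0.81 in ABE against WT (SE 0.11, adjusted p = 6.5e-08). Saline against WT gave 0.24 (SE 0.11, adjusted p = 0.053), and the adjusted p was between 0.025 and 0.049 without any 1 of 9 libraries (WT replicates 5 and 6, saline replicates 3, 8 and 9, and ABE replicates 1, 2, 3 and 9). It was also called with WT and saline libraries fitted alone (adjusted p = 0.016), array weights (0.021), limma-voom on recovered reads of all genes tested (0.041) and a pseudocount of 0.1 (0.045).

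Dnajb1, the J protein that delivers clients to HSP70 and is itself heat-inducible, was at 2.67, 3.77 and 4.67 scaled TPM (lowest, median and highest) in WT, 2.67, 4.04 and 5.21 in saline-treated and 2.19, 3.32 and 4.93 in ABE-treated mice. The 3 groups overlapped, with 2 ABE-treated mice below all saline-treated mice. The lower of them was ABE replicate 1, the library with the lowest scale factor. In ABE against saline the log2 fold change of Dnajb1 was -0.25 (SE 0.10, adjusted p = 0.036, limma). That call was lost without any 1 of 10 libraries (saline replicates 1, 2, 4, 6 and 10 and ABE replicates 1, 3, 5, 8 and 12), with adjusted p between 0.051 and 0.081. Neither comparison with wild type was called in the fit reported, with log2 fold changes of 0.11 (adjusted p = 0.37) in saline-treated and -0.14 (adjusted p = 0.20) in ABE-treated mice. Over 19 alternatives of processing, Dnajb1 ran from -0.080 to 0.28 in saline against WT and was called higher in 1. In ABE against WT it ran from -0.62 to 0.21 and was called lower in 2.

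**Figure D2:**
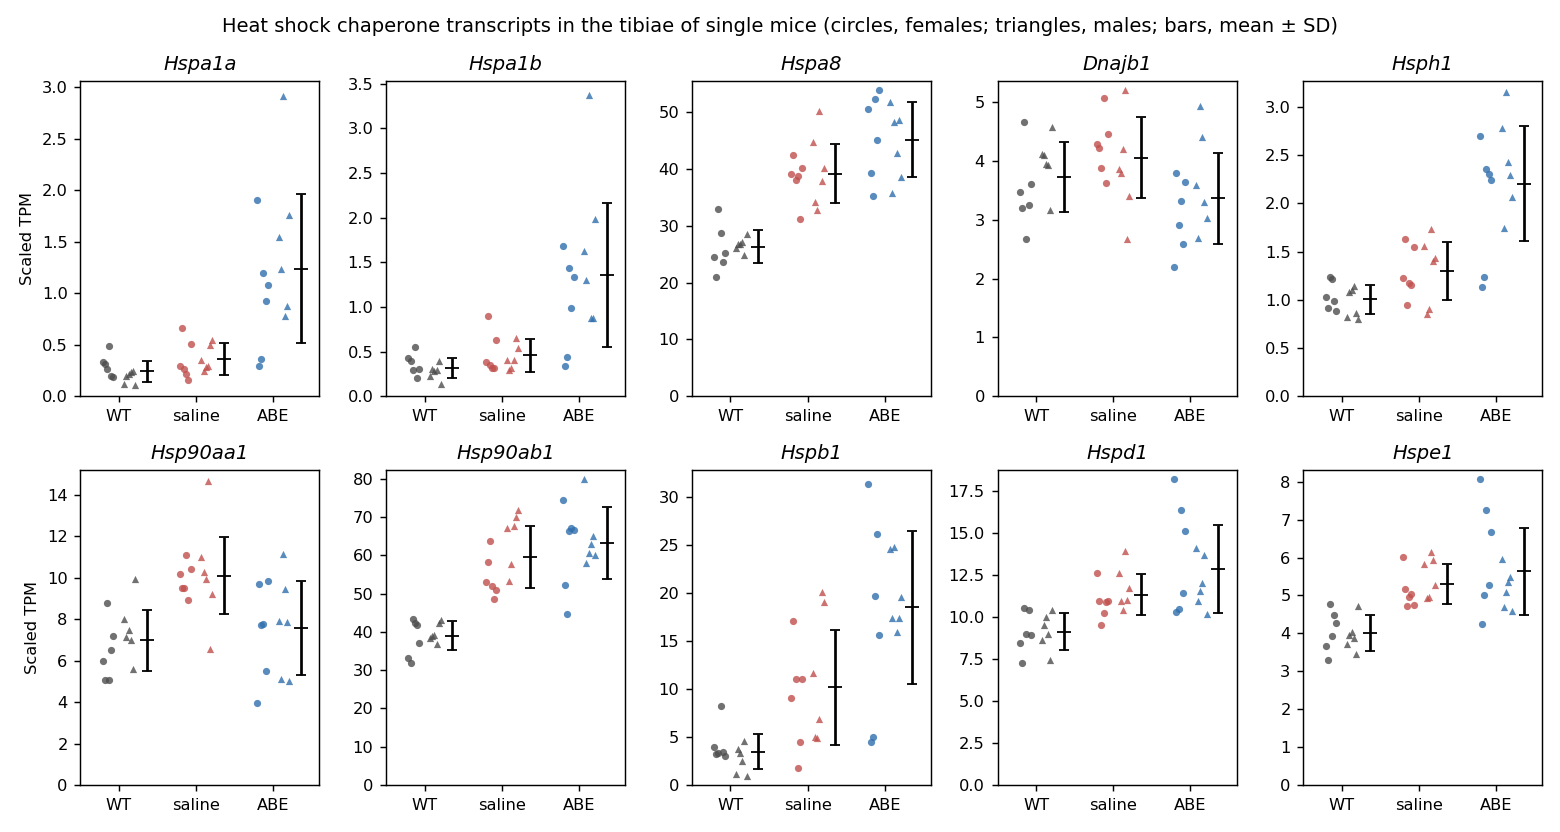
Scaled TPM (vertical axis, linear, from 0) of each chaperone in every mouse by group (horizontal axis), with females as circles, males as triangles and bars for mean ± SD of 12 mice. For Hspa1a, 10 ABE-treated mice stand above the highest saline-treated mouse at 0.665 scaled TPM, whereas for Hsp90ab1 both transgenic groups lie above the highest wild-type mouse at 43.4.

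Hsp90ab1, the constitutive isoform, was at 31.9, 39.0 and 43.4 scaled TPM (lowest, median and highest) in WT, 48.5, 58.1 and 71.9 in saline-treated and 44.7, 64.1 and 80.01 in ABE-treated mice. Both transgenic groups lay entirely above wild type, and they overlapped each other. Its log2 fold change was 0.60 in saline against WT (SE 0.08, adjusted p = 1.6e-07, limma) and 0.68 in ABE against WT (SE 0.08, adjusted p = 8.2e-09), and 0.08 in ABE against saline (SE 0.08, adjusted p = 0.40).

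Hsp90aa1, the stress-inducible isoform, followed another course. Levels were 5.05, 7.07 and 9.95 scaled TPM (lowest, median and highest) in WT, 6.55, 10.05 and 14.7 in saline-treated and 3.96, 7.81 and 11.1 in ABE-treated mice. Saline-treated mice were higher than wild type by 0.51 (SE 0.13, adjusted p = 0.0021, limma), with 6 of 12 above every wild-type mouse. Its log2 fold change in ABE against saline was -0.43 (SE 0.13, adjusted p = 0.010), with 4 of 12 below all saline-treated mice. The lowest of them was ABE replicate 1, the library with the lowest scale factor. ABE-treated and wild-type mice gave 0.08 (SE 0.13, adjusted p = 0.61), with an interval of -0.19 to 0.35. Over 20 alternatives of processing, this difference ran from -0.44 to 0.52, and Hsp90aa1 was called higher in 2. Of its read-length windows, 36.03% occur in transcripts of other genes, foremost the pseudogene Gm12346, whose mean level was 6.72% of that of Hsp90aa1.

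Hspb1, the small heat shock protein HSP25 that binds actin filaments and unfolded clients, varied widely between mice. It was at 0.963, 3.31 and 8.26 scaled TPM (lowest, median and highest) in WT, 1.81, 10.04 and 20.2 in saline-treated and 4.44, 18.5 and 31.4 in ABE-treated mice. The highest ABE mouse was replicate 1, the library with the lowest scale factor. Within each group the highest mouse was at least 7.07 times the lowest, whereas for Hsp90ab1 this ratio was at most 1.79. The log2 fold change was 1.32 in saline against WT (SE 0.34, adjusted p = 0.0015, limma), 2.22 in ABE against WT (SE 0.34, adjusted p = 7.6e-07) and 0.90 in ABE against saline (SE 0.34, adjusted p = 0.027). The last call was lost without saline replicate 4 (adjusted p = 0.062) or ABE replicate 1 (adjusted p = 0.054). It was also lost with the mean of the skeletal muscle markers in the model, where the log2 fold change was -0.0067 (adjusted p = 0.98). With that covariate ABE against WT gave 0.43 (adjusted p = 0.13), and saline against WT stayed called, although not with 4 cell type covariates (0.56, adjusted p = 0.16). The pseudogene Hsp25-ps1, which shares 36.5% of Hspb1 windows, was at 4.28% of its mean level.

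Hspd1, the HSP60 barrel subunit, was at 7.28, 8.997 and 10.5 scaled TPM (lowest, median and highest) in WT, 9.53, 10.98 and 13.97 in saline-treated and 10.2, 11.8 and 18.2 in ABE-treated mice. Hspe1, its HSP10 lid, was at 3.29, 3.94 and 4.79 in WT, 4.72, 5.10 and 6.15 in saline-treated and 4.25, 5.31 and 8.08 in ABE-treated mice. In both transgenic groups 9 or 10 of 12 mice stood above all wild-type mice. Saline against WT gave 0.30 for Hspd1 (SE 0.08, adjusted p = 0.0039, limma) and 0.37 for Hspe1 (SE 0.08, adjusted p = 1.8e-04). ABE against WT gave 0.46 for Hspd1 (adjusted p = 1.6e-05) and 0.43 for Hspe1 (adjusted p = 9.6e-06), and ABE against saline gave 0.16 (adjusted p = 0.12) and 0.06 (adjusted p = 0.51). The highest ABE mouse for both genes was replicate 1, the library with the lowest scale factor.

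Ratios of TPM within 1 library do not depend on how libraries were scaled. These ratios were chosen after the levels were seen and are given as descriptions. The sum of Hspa1a and Hspa1b was a median of 1.91% of Hspa8 in WT, 1.71% in saline and 4.75% in ABE libraries, and 9 of 12 ABE libraries were above all libraries of both other groups. Hsph1 was at medians of 4.08%, 3.47% and 5.001% of Hspa8 in WT, saline and ABE libraries. Dnajb1 was at medians of 14.4% in WT, 10.7% in saline and 7.25% in ABE libraries, relative to Hspa8. Hsp90aa1 was at medians of 18.7%, 17.8% and 11.9% of Hsp90ab1 in WT, saline and ABE libraries, and 4 ABE libraries were below all saline libraries. Dnajb1 was at medians of 53.0%, 40.8% and 44.9% of Hsp90aa1, with all 12 saline libraries below all WT libraries, the only ratio examined in which 2 groups did not overlap. How many ratios of other genes separate these groups was not computed. Hspb1 was at medians of 13.2%, 24.6% and 42.6% of Hspa8. The Hspe1 to Hspd1 ratio stayed within 40.0% and 53.9% in all 36 libraries. These ratios show unequal change of 2 genes and not which of them changed.

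**Figure D3:**
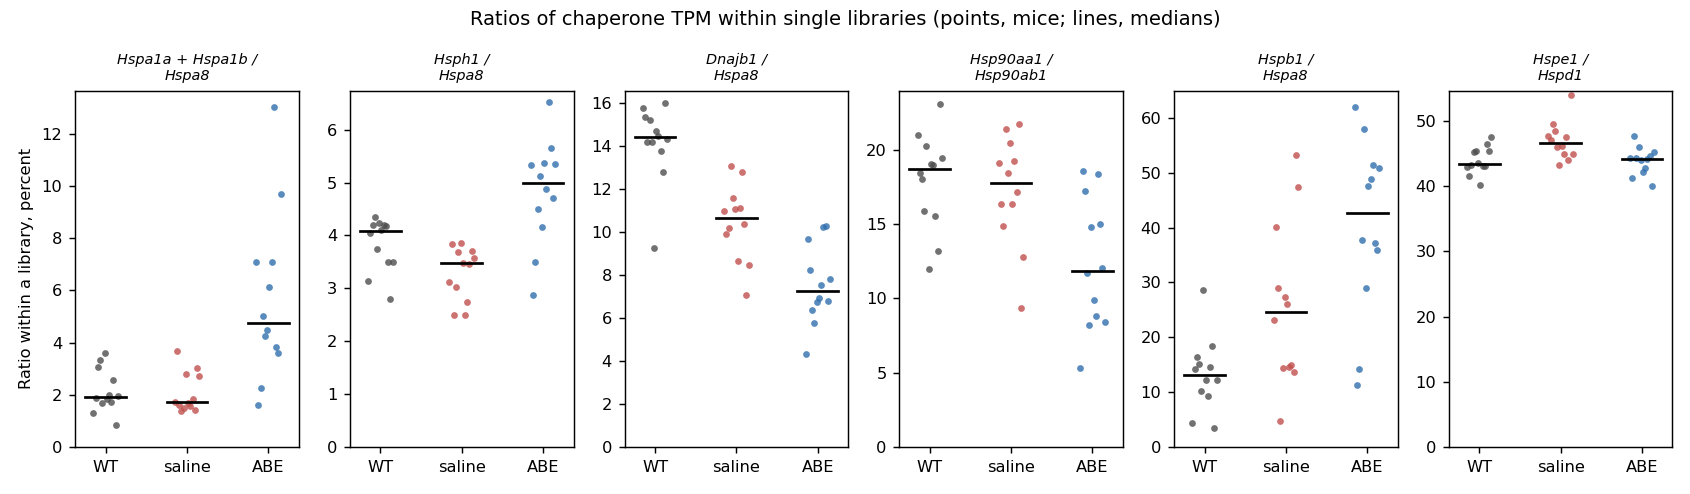
Ratio of chaperone TPM within single libraries, in percent (vertical axis, from 0), for 12 mice in each group (horizontal axis), with lines at the median. The inducible to constitutive HSP70 ratio is highest in ABE libraries (median 4.75%), the Dnajb1 to Hspa8 ratio has medians of 14.4%, 10.7% and 7.25% in WT, saline and ABE, and the Hspe1 to Hspd1 ratio stays between 40.0% and 53.9%.

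Differences between the sexes in these comparisons were read from the interaction term of limma. By that test 0 of 10 members were called, beside 1.55%, 3.81% and 0.0566% of all genes in saline against WT, ABE against WT and ABE against saline (0.887%, 1.82% and 0.0377% with the higher log2 fold change in males, and 0.66%, 1.99% and 0.0189% in females). At an unadjusted p under 0.05 there were 3642, 3196 and 2512 of the 15902 genes tested, and 0, 2 and 0 members. These 2 were Hspa1a and Hspa1b in ABE against WT, a share near that of all genes. There the log2 fold change of males exceeded that of females by 0.70 for Hspa1a (SE 0.30, adjusted p = 0.18) and by 0.64 for Hspa1b (SE 0.30, adjusted p = 0.23). Limma-voom on recovered reads called 0 members too, beside 432, 460 and 0 genes in the same order. The deposited TPM without scaling called 2, both in ABE against WT, beside 422 genes. Among ABE-treated mice the median of Hspa1a was 1.39 scaled TPM in males and 1.001 in females. Fitted alone, males gave 1.15 for Hspa1a in ABE against saline (adjusted p = 0.0020) and females 0.71 (adjusted p = 0.034).

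Across mice, some pairs of members varied together. The share of all gene pairs that would pass was not computed, here or for the gene lists below, so the counts are descriptions. After the mean of each sex-by-group class was removed, 18 of 45 pairs had a positive and 2 a negative Pearson correlation at an adjusted p under 0.05 (permutation test within classes, 100000 resamples, two-sided, Benjamini-Hochberg over 45 pairs). Over 36 mice, Hspa1a and Hspa1b gave r = 0.98 (Spearman rho = 0.96), and r = 0.96 without the 2 mice farthest from the median. Whether shared reads raised this correlation was not tested. Hspd1 and Hspe1 gave r = 0.94 (rho = 0.92, and r = 0.92 without 2 mice). Dnajb1 and Hsp90aa1 gave r = 0.93 (rho = 0.90, and r = 0.92 without 2 mice). Each of these had a permutation p of 1e-05, the smallest the resamples can give, with adjusted p of 6.4e-05 for r and 7.5e-05 for rho.

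Hspa8 correlated with Hsph1 (r = 0.78, rho = 0.78), Hspd1 (r = 0.73, rho = 0.76), Hsp90ab1 (r = 0.72, rho = 0.65) and Hspe1 (r = 0.70, rho = 0.71), and Hspa1a correlated with Hspb1 (r = 0.74, rho = 0.81) and Hsph1 (r = 0.72, rho = 0.69). For these 6 pairs the permutation p of r was at most 5e-05 and the adjusted p at most 2.2e-04, and r was between 0.62 and 0.74 without the 2 farthest mice. The only negative pairs past the threshold joined Hspb1 with Dnajb1 (r = -0.47, rho = -0.48, permutation p = 0.0046, adjusted p = 0.010) and with Hsp90aa1 (r = -0.48, rho = -0.50, permutation p = 0.0042, adjusted p = 0.0099). Without the 2 mice farthest from the median these were -0.39 and -0.44.

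Members also varied with markers of cells beside bone. Hspb1 correlated with the mean of the 16 skeletal muscle markers at r = 0.91 (rho = 0.91, permutation p = 1e-05, adjusted p = 1e-04, and r = 0.87 without 2 mice), and 4 other members had positive correlations past the threshold, with r from 0.48 to 0.61 (Hspa1a, Hspa1b, Hsph1 and Hsp90ab1), and from 0.45 to 0.55 without 2 mice. Dnajb1 and Hsp90aa1 were negative there, at r = -0.58 (rho = -0.54) and r = -0.55 (rho = -0.55). Toward the 8 neutrophil markers the same pair was positive, at r = 0.72 for Dnajb1 (rho = 0.71) and r = 0.82 for Hsp90aa1 (rho = 0.82), with permutation p of 2e-05 and 1e-05 and with r of 0.70 and 0.79 without 2 mice. Hspb1 was negative there at r = -0.60 (rho = -0.60, permutation p = 2.8e-04, adjusted p = 9.3e-04, and r = -0.48 without 2 mice). Hspa1a and Hspa1b were negative at r = -0.55 (rho = -0.46, permutation p = 0.012, adjusted p = 0.031) and r = -0.50 (rho = -0.42, permutation p = 0.022, adjusted p = 0.045), but r was -0.27 and -0.28 without 2 mice, so that these relations rest on them. The means of both marker lists and of these 2 genes move with treatment as well, and their part in the difference between treated and untreated mice was not tested beyond the fits with covariates. With the muscle marker mean as a covariate, ABE against saline kept its call for Hspa1a (0.65, adjusted p = 0.0075, limma), Hspa1b (0.60, adjusted p = 0.016) and Hsph1 (0.39, adjusted p = 0.016). It lost its call for Hsp90aa1 (-0.20, adjusted p = 0.30), Dnajb1 (-0.07, adjusted p = 0.65) and Hspa8 (0.14, adjusted p = 0.30). Markers of muscle, neutrophils, B cells and erythroid cells entered together left Hspa1a (0.66, adjusted p = 0.024) and Hsph1 (0.50, adjusted p = 0.011) called, and Hspa1b at 0.61 (adjusted p = 0.051).

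Lists of genes that respond within the hour or by time of day were set beside the members too, each relation adjusted over the 10 members. Among all genes, 27.7% were called higher and 24.6% lower in saline against WT, and 23.2% and 25.2% in ABE against saline. Immediate early genes are 12 transcripts such as Fos, Jun and Nr4a1 that rise minutes after a stimulus. Of 11 tested, 8 were higher and 1 lower in saline against WT, and 4 higher and 2 lower in ABE against saline. Their mean correlated with Hspa1a at r = 0.74 (rho = 0.79), with Hspa1b at r = 0.72 (rho = 0.77) and with Hspb1 at r = 0.64 (rho = 0.67), each with a permutation p of at most 4e-05, and with Hsp90aa1 at r = -0.59 (rho = -0.58, permutation p = 0.0017, adjusted p = 0.0042) and Dnajb1 at r = -0.50 (rho = -0.46, permutation p = 0.0086, adjusted p = 0.017). Clock output genes, listed as Dbp, Tef, Per1, Per2, Per3, Nr1d1, Nr1d2, Ciart and Arntl, follow the hour of the day. In ABE against saline 6 of the 9 were higher, beside 23.2% of all genes. These 9 mix core clock genes such as Arntl with output genes, and their mean is not a reading of the hour. Hsp90aa1 and Dnajb1 were negative with their mean, at r = -0.83 (rho = -0.81) and r = -0.82 (rho = -0.76), both with a permutation p of 1e-05, and r was -0.83 and -0.80 without the 2 farthest mice. Hspb1 was positive with that mean at r = 0.60 (rho = 0.59, permutation p = 1e-04, adjusted p = 3.3e-04, and r = 0.57 without 2 mice), as were Hspa1a at r = 0.47 (rho = 0.43, permutation p = 0.0082, adjusted p = 0.021, and r = 0.39 without 2 mice) and Hspa1b at r = 0.43 (rho = 0.41, permutation p = 0.016, adjusted p = 0.031, and r = 0.36 without 2 mice). The cold-induced RNA-binding protein genes Cirbp and Rbm3, which fall as temperature rises, were both lower in ABE against saline, with log2 fold changes of -0.25 (adjusted p = 0.0026, limma) and -0.59 (adjusted p = 3.1e-04). Hsph1 was negative with their mean at r = -0.65 (rho = -0.54, permutation p = 0.0012, adjusted p = 0.012), and 6 of 10 members were negative past the threshold. Without the 2 farthest mice r was -0.55 for Hsph1, -0.48 for Hspa8 and -0.41 for Hsp90ab1. For Hspb1, Hspa1a and Hspa1b it was then -0.37, -0.31 and -0.30. The hour of tissue collection is not given in the sources used here, and the part of these lists in the differences between groups was not tested.

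**Figure D4:**
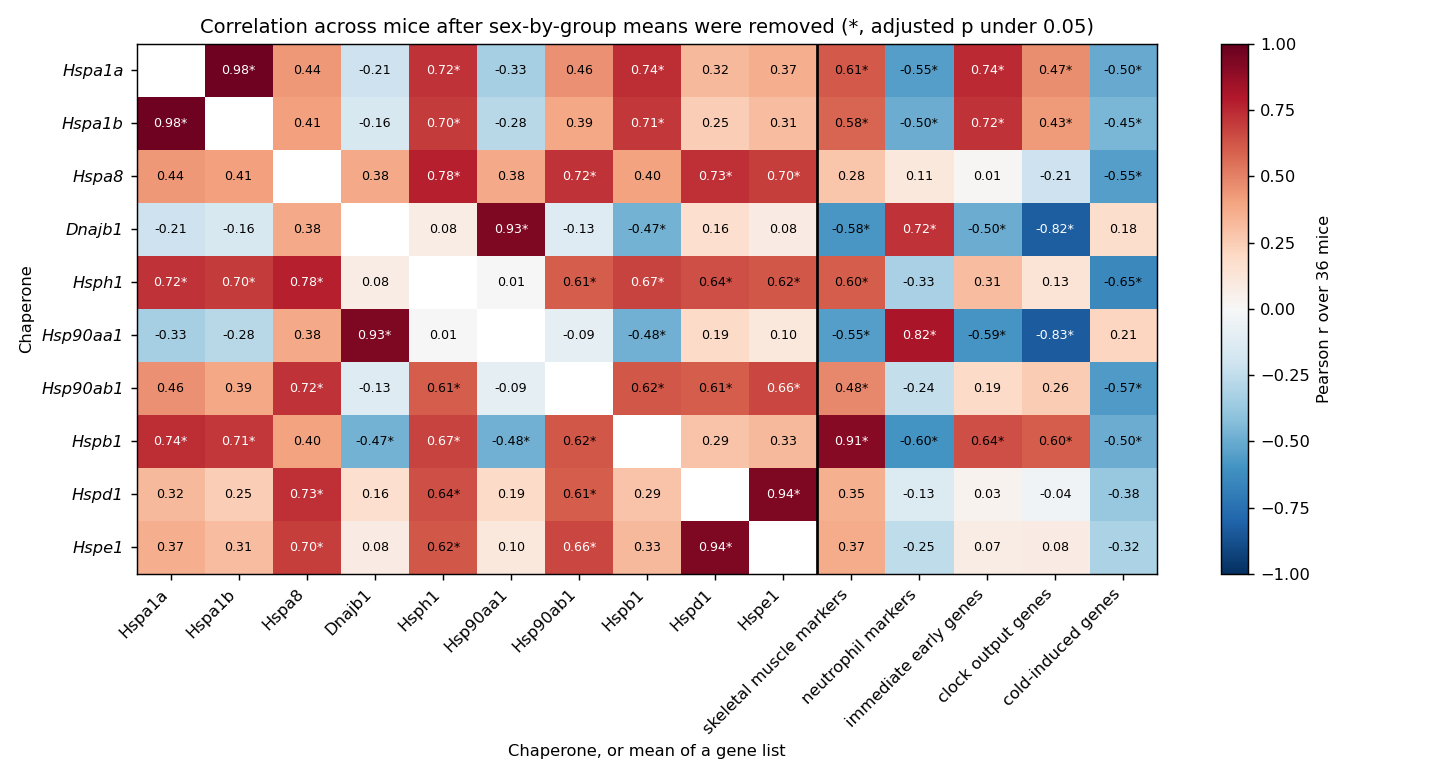
Pearson correlation over 36 mice between chaperones (left of the line) and between each chaperone and the mean of 5 gene lists (right of the line), after sex-by-group means were removed. Asterisks mark an adjusted p under 0.05 within each family. Within groups, Dnajb1 and Hsp90aa1 (r = 0.93) were both negative with Hspb1, which follows the muscle markers at r = 0.91.

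Other genes of chaperone families were more often higher than lower on the scaled TPM, although with TPM as deposited several lists turned. Of 66 other genes of chaperone families, 64 were tested, and 37 were higher and 1 lower in saline against WT, 52 higher and 3 lower in ABE against WT, and 34 higher and 5 lower in ABE against saline. Read against the 27.7%, 35.0% and 23.2% of all genes called higher, these counts lie above the background, and the median log2 fold changes were 0.23, 0.29 and 0.16. With TPM as deposited the median in ABE against saline turned negative for J proteins (-0.21), BAG and exchange factors (-0.20), HSP90 co-chaperones (-0.14) and mitochondrial chaperones (-0.12), and that in saline against WT for other HSP70 genes (-0.029) and BAG factors (-0.049). In ABE against WT that scaling gave 0 higher and 4 lower HSP90 co-chaperones, 0 and 3 TRiC genes, 3 and 5 J proteins and 1 and 3 BAG factors.

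All 6 other small heat shock proteins, which are muscle-enriched chaperones, were higher in each of the 3 comparisons. With TPM as deposited 6, 6 and 2 of them were higher, in saline against WT, ABE against WT and ABE against saline. The alpha B-crystallin gene Cryab rose by 1.62 in saline against WT (log2 fold change, SE 0.37, adjusted p = 4.7e-04, limma), Hspb7 by 1.60 (adjusted p = 9.9e-04) and Hspb2 by 1.09 (adjusted p = 0.0018). In ABE against saline, Hspb6 rose by 1.37 (SE 0.39, adjusted p = 0.0053), Hspb2 by 1.03 (adjusted p = 0.0045) and Hspb3 by 0.93 (adjusted p = 0.0028). Their summed level had a median of 26.7 scaled TPM in WT, 67.6 in saline and 159 in ABE libraries, beside the muscle marker medians given above.

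TRiC is the ring-shaped cytosolic chaperonin that folds actin and tubulin. Its 8 listed subunit genes were all higher in saline against WT, although 0 were with TPM as deposited and 1 with scaling by the sum of longer genes, led by Cct3 (0.31, adjusted p = 3.3e-06, limma), Cct5 (0.38, adjusted p = 6.7e-06) and Cct4 (0.30, adjusted p = 4.2e-05). In ABE against saline 3 of 8 were lower and none higher, with Cct7 at -0.14 (adjusted p = 0.023), Cct2 at -0.14 (adjusted p = 0.033) and Cct5 at -0.15 (adjusted p = 0.048). This count was 8 lower with TPM as deposited and 0 lower with median ratios over genes of at least 5 TPM.

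Among 9 other HSP70 and HSP110 genes, 3 were higher in saline against WT and 6 higher and 1 lower in ABE against saline. Hspa13, a microsomal HSP70, rose by 0.24 in saline against WT (adjusted p = 9.6e-07, limma), mitochondrial Hspa9 by 0.49 (adjusted p = 0.0080) and Hspa2 by 0.16 (adjusted p = 0.031). Hspa1l, a close homolog that shares read-length windows with Hspa1a and Hspa1b, rose by 1.12 in ABE against saline (SE 0.24, adjusted p = 0.0010), Hspa12b by 0.55 (adjusted p = 8.4e-04), and Hspa14 fell by 0.29 (adjusted p = 9.7e-04). Of 11 other J proteins, 4 were higher and 1 lower in saline against WT and 6 higher in ABE against saline, including Dnajb5 (1.15, adjusted p = 7.0e-04), Dnaja4 (0.63, adjusted p = 0.0014) and mitochondrial Dnaja3 (0.48, adjusted p = 0.0019). In saline against WT, Dnaja2 (0.55, adjusted p = 3.3e-05), Dnajc2 (0.19, adjusted p = 1.4e-04) and Dnaja3 (0.35, adjusted p = 0.012) were higher.

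Bag3, an HSP70 exchange factor that works with small heat shock proteins in muscle, rose by 0.58 in saline against WT (adjusted p = 0.0092, limma) and by 0.86 in ABE against saline (SE 0.19, adjusted p = 9.5e-04). In saline against WT, Bag5 (0.23, adjusted p = 5.9e-05) and Bag1 (0.38, adjusted p = 8.8e-04) were higher too. Bag3 was 1 of 2 BAG and exchange factors of 7 that were higher in ABE against saline, with Bag6 (0.17, adjusted p = 0.028), while Bag4 was lower (-0.09, adjusted p = 0.0098). HSP90 co-chaperones were higher for 7 of 13 in saline against WT, led by Cdc37 (0.23, adjusted p = 1.1e-06), Stip1 (0.39, adjusted p = 1.9e-06) and the glucocorticoid-responsive Fkbp5 (0.62, adjusted p = 2.2e-06). In ABE against saline 8 of 13 were higher, among them the HSP90 activator gene Ahsa2 (0.24, adjusted p = 1.9e-04), Chordc1 (0.21, adjusted p = 0.0014) and Ppp5c (0.21, adjusted p = 0.0030).

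Mitochondrial chaperones and proteases were higher for 5 of 8 in saline against WT and 6 of 8 in ABE against saline. Grpel1, the exchange factor of mitochondrial HSP70, rose by 0.49 in saline against WT (adjusted p = 1.1e-06, limma), and the protease subunit gene Clpp by 0.24 (adjusted p = 0.0043). Hspa9 rose by 0.53 (adjusted p = 0.0062) and Clpx by 0.26 (adjusted p = 0.0077) in ABE against saline.

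Of 3 heat shock factor and regulator genes tested, 2 were higher in saline against WT and 2 in ABE against saline, whereas with TPM as deposited these counts were 1 and 0. Hsf1, the main activator of the heat shock response, was at 1.54 ± 0.0972 scaled TPM in WT, 1.45 ± 0.128 in saline and 1.93 ± 0.390 in ABE libraries (SD, n = 12), and its log2 fold change in ABE against saline was 0.30 (SE 0.06, adjusted p = 4.8e-04, limma). Hsf4 rose by 0.52 in saline against WT (adjusted p = 3.2e-04) and by 0.36 in ABE against saline (adjusted p = 0.011), and the regulator Hsbp1 rose by 0.48 in saline against WT (adjusted p = 4.3e-06). Hsf2 and Hsf5 were below the level needed for testing. Serpinh1, the collagen chaperone HSP47 of osteoblasts, rose by 0.46 in saline against WT (adjusted p = 0.020) and was 0.13 higher in ABE against saline (adjusted p = 0.52).

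**Figure D5:**
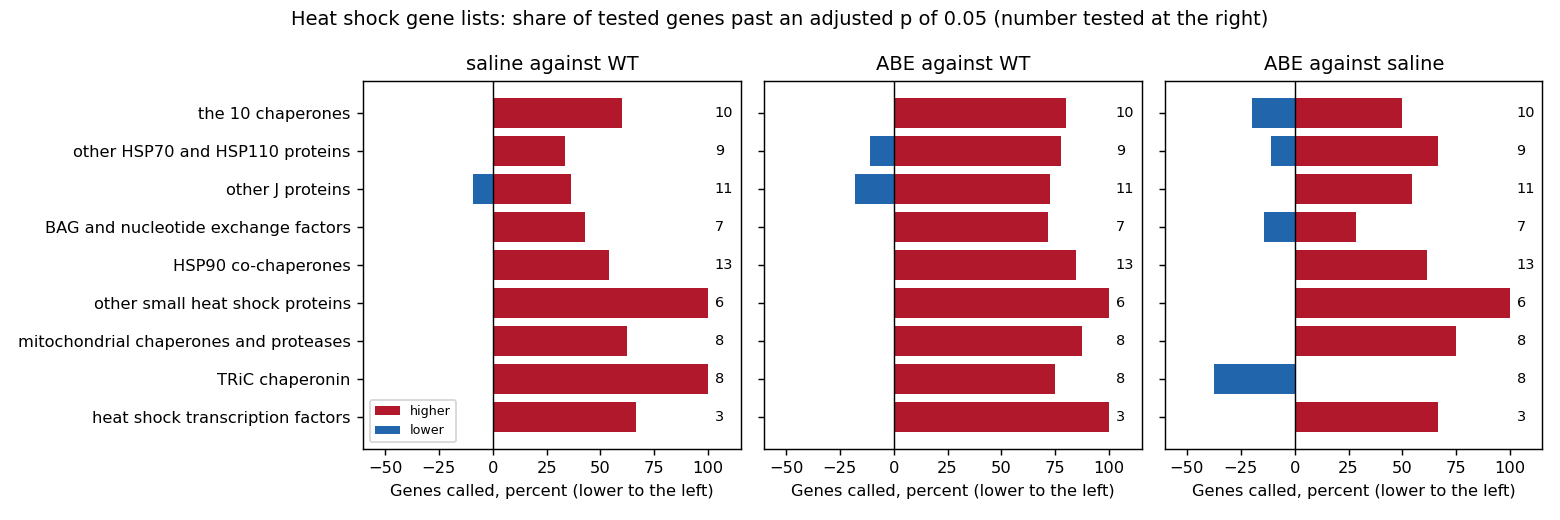
Share of tested genes called higher (right of 0) or lower (left of 0) in each chaperone list (vertical axis), in percent (horizontal axis), for 3 comparisons, with the number tested at the right. On the scaled TPM all 8 TRiC genes are higher in saline against WT and 3 are lower in ABE against saline, while all 6 small heat shock proteins are higher in every comparison.

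Of 3903 non-member genes with a mean of at least 5 scaled TPM, those whose pattern over 36 mice was most like the mean of the members, after sex-by-group means were removed, were Stip1 (r = 0.89), Bsg (r = 0.85), Fkbp4 (r = 0.83), Mgst3 (r = 0.82) and Tcp1 (r = 0.82). Points share libraries and depth, and r is given as a description.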

How the data were processed

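Paired-end, strand-specific poly(A) reads of 151 bases were aligned by the authors to GRCm38 with STAR (version 2.73a in their processing notes) and counted on GENCODE genes with QoRTs. The authors deposited TPM for 56246 genes in 36 libraries, without stating how TPM were calculated, and the GC share of each gene as a fraction, used here only to remove a trend with GC content and length.

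TPM were divided by median ratio scale factors, over 23632 genes above 0 in every library. Multiplying TPM by the gene length minus 218 bp and dividing by the step of each library returned whole reads for 100.0% of values (tolerance 0.01), which give the depth. TPM are not counts, so log2(scaled TPM + 0.5) of 15902 genes with a mean of at least 0.5 was fitted with limma 3.58.1 (R 4.3.3; sex as covariate, eBayes with trend), with Benjamini-Hochberg adjustment. The fit was tested on simulated data. Libraries are single mice. Identical libraries: 0 pairs.

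The members and lists were chosen with earlier results of these data known. Every member is named. Of each chaperone list, genes past the threshold among the 3 with the lowest p in saline against WT or in ABE against saline are named with values, and values of Hsf1, Serpinh1, Cirbp and Rbm3 were added as listed genes. Gene coordinates and shared 151-base windows came from GENCODE vM21 on GRCm38. Alternatives were other pseudocounts, filters, scalings, samples and covariates, and limma-voom on recovered reads, of which the fit over all genes tested was chosen after seeing the data.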

Additional observations from a re-analysis of the deposited data

How the results depend on the processing

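Limits. Leaving out 1 library at a time gave counts of called genes of 7742 to 8864 (saline against WT), 10960 to 11382 (ABE against WT) and 6717 to 8469 (ABE against saline), and for the sex interactions 0 to 1260, 187 to 1331 and 0 to 216 genes. In every such fit 0 members had a sex interaction and no member changed direction. The calls that depend on 1 library (Hspa8, Dnajb1 and Hspb1 in ABE against saline, Hsph1 in saline against WT) are named in the report. No paired analysis was possible because the replicate numbers follow accession order and only name mice.

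Counts of called genes in saline against WT, ABE against WT and ABE against saline, in that order, were 13260, 19277 and 10191 with no filter, 2043, 2606 and 1775 with a filter at 5 TPM (fewer genes tested) and 3996, 5385 and 4132 with limma-voom on recovered reads (fewer genes tested). TPM as deposited gave 4761, 10930 and 7120, a fit of males alone 8686, 10461 and 3267, of females alone 3319, 8644 and 4830, the skeletal muscle covariate 7125, 5023 and 1275, and 4 cell type covariates 3621, 3044 and 662. The cause of the differences under covariates was not tested.

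Scaling moves directions. TPM as deposited shifts the median of all genes by -0.13, -0.42 and -0.27 (log2), and the calls were 1035 higher and 3726 lower, 1468 and 9462, and 540 and 6580, beside 4412 and 3914, 5566 and 5603, and 3693 and 4000 in the fit reported. Scaling by the sum over longer genes (medians -0.14, -0.19 and -0.02) gave 1869 and 6791, 3593 and 7855, and 3462 and 3382, and median ratios over genes of at least 5 TPM gave 3134 and 5030, 5691 and 5455, and 5235 and 2661. With TPM as deposited, relative to 0 and not to those medians, Dnajb1 (-0.071, saline against WT), Hsp90aa1 (-0.44), Hspd1 (-0.098) and Hspe1 (-0.093) in ABE against WT, and Hspa8 (-0.18), Hsp90ab1 (-0.30), Hspd1 (-0.21) and Hspe1 (-0.28) in ABE against saline changed sign, and only Hspa1a and Hspa1b kept their calls among those higher in ABE against saline. With the sum, Dnajb1 (-0.080, saline against WT) and Hsp90aa1 (-0.13, ABE against WT) changed sign.

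Other sign changes: in males alone Dnajb1 -0.054 (saline against WT) and Hsp90ab1 -0.00431 and Hspe1 -0.077 (ABE against saline); with the skeletal muscle covariate Hspa1a -0.065 and Hspa1b -0.022 (saline against WT), Dnajb1 0.21 (ABE against WT), and Hsp90ab1 -0.028, Hspb1 -0.00674 and Hspe1 -0.021 (ABE against saline); with 4 cell type covariates Hsph1 -0.031 (saline against WT), Dnajb1 0.21 (ABE against WT), and Dnajb1 0.098, Hsp90aa1 0.024, Hsp90ab1 -0.034 and Hspb1 -0.044 (ABE against saline). Hspa1a in ABE against saline stayed called in all 18 alternatives that include it, from 0.65 to 1.64. The filter at 5 TPM and limma-voom on recovered reads with fewer genes tested leave it out. Hspa1a passed the filter of the fit reported only through the ABE group, so alternatives that keep that filter cannot test its effect. With no filter Hspa1a stayed called.

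Genes with a sex interaction in saline against WT (246) numbered 136 with a pseudocount of 1, 2 with no filter, 7 with the 5 TPM filter, 0 with TPM as deposited, with the 5 TPM median ratio, with the sum and with the GC and length trend removed, 114 with quantile normalization, 977 with array weights, 432 and 424 with limma-voom, 1025 with compared groups alone, 1 with the muscle and 1193 with 4 covariates, and 585 without ABE replicate 1. In ABE against WT (606) they numbered 383 with no filter, 35 with the 5 TPM filter, 286 with the 5 TPM median ratio, 186 with the sum, 133 with compared groups alone, 1110 and 1985 with covariates, 251 with the trend removed and 1271 without ABE replicate 1. In ABE against saline (9) they numbered 0 with no filter, quantile normalization, limma-voom on recovered reads (8 over all genes tested) and compared groups alone, 3 with the 5 TPM filter, 1 with the 5 TPM median ratio, 45 with the sum, 20 and 66 with covariates and 17 with the trend removed. TPM as deposited was the only setting with members called for a sex interaction, 2 in ABE against WT, beside 422 genes.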
